A study of Homo sapiens and Mus musculus with 213 samples.

Results

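The 10 genes described here regulate or mark the epithelial-mesenchymal transition (EMT) and the cadherin switch that goes with it: SNAI2, ZEB1, ZEB2, TWIST1, CDH1, CDH2, VIM, FN1, CD44 and EPCAM. They were chosen by name, with earlier results of these data known. Their rows in the RNA-seq tables are those whose Ensembl identifier carries one of these symbols in GENCODE. All 10 were found among the 58336 genes listed. HEK293T is a human embryonic kidney cell line that carries the large T antigen of SV40. Gene expression is described here in 2 HEK293T lines with 3 RNA-seq libraries each. MYC WT carries the unedited guanine-rich sequence upstream of the MYC oncogene, which folds into a G-quadruplex (G4), a structure of stacked guanines. In MYC MUT, CRISPR editing placed point mutations in the guanine runs so that the structure no longer forms. The edited cells are homozygous and were grown from single cells, and the number of clones behind the RNA-seq libraries is not given in the sources used here. An effect of the edit and a difference between clones therefore cannot be told apart.

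In EMT, epithelial cells loosen their junctions and take on a motile, fibroblast-like state. Zinc finger factors of the SNAI and ZEB families and the basic helix-loop-helix factor TWIST1 bind E-box sequences, and the SNAI and ZEB factors repress the gene of E-cadherin, CDH1. The cadherin switch is the replacement of E-cadherin by N-cadherin, the product of CDH2. VIM encodes the intermediate filament protein vimentin, FN1 the matrix protein fibronectin, CD44 the hyaluronan receptor, and EPCAM an epithelial surface adhesion protein. HEK293T cells carry markers of neuronal as well as epithelial cells, and the comparison here asks how the EMT genes stood in such cells after the edit at MYC.

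The values are reads per gene that the authors scaled with the size factors of DESeq2, one per library, called normalized counts below. Between 68170323 and 79913764 reads per library fell on genes. MYC, the gene next to the edit, had a normalized count of 23332 ± 4454 in MYC WT (SD, n = 3). In MYC MUT it had 11423 ± 880, or 49.0% of that mean. Of 8 HEK293T markers, 7 had a mean of at least 10 in each line, and PAX8, a factor of the kidney lineage, lay at a mean of 0.97 or less. The 9 fibroblast markers summed to 1268 to 1513 in MYC WT and 2079 to 2185 in MYC MUT, most of it COL1A1, while the fibroblast genes COL1A2 and FAP were listed at 0 in MYC WT and averaged under 1 count in MYC MUT. The 9 endothelial and blood cell markers summed to at most 232, with CD3E and HBB at 0 in MYC WT and HBB at 0 in MYC MUT. Replicate 1 of MYC WT stood apart from the other libraries of its line, with a chi-square per degree of freedom of 40.2 and 28.0 against them and a lower value between the other 2. The MYC WT columns carry the tag of a sequencing pool in their headers and those of MYC MUT carry none, so pool and line cannot be told apart.

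Of the 10 members, 9 reached a mean normalized count of 10 and were tested with limma among 20884 genes, and CD44 did not. A gene was called when its adjusted p was under 0.05 and its log2 fold change beyond 0.5. In MYC MUT against MYC WT, 2 of the 9 members were called, SNAI2 and ZEB1, both lower, where 21.4% of all genes were called, 11.3% higher and 10.1% lower. With libraries rescaled to equal totals, 2874 of 4474 called genes were higher, in place of 2365 of 4476. The libraries of the 2 lines did not overlap for 6 of the 9 members, against 52.3% of all genes. The median log2 fold change of the 9 was -0.030, and that of all genes -0.0034.

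**Figure D1:**
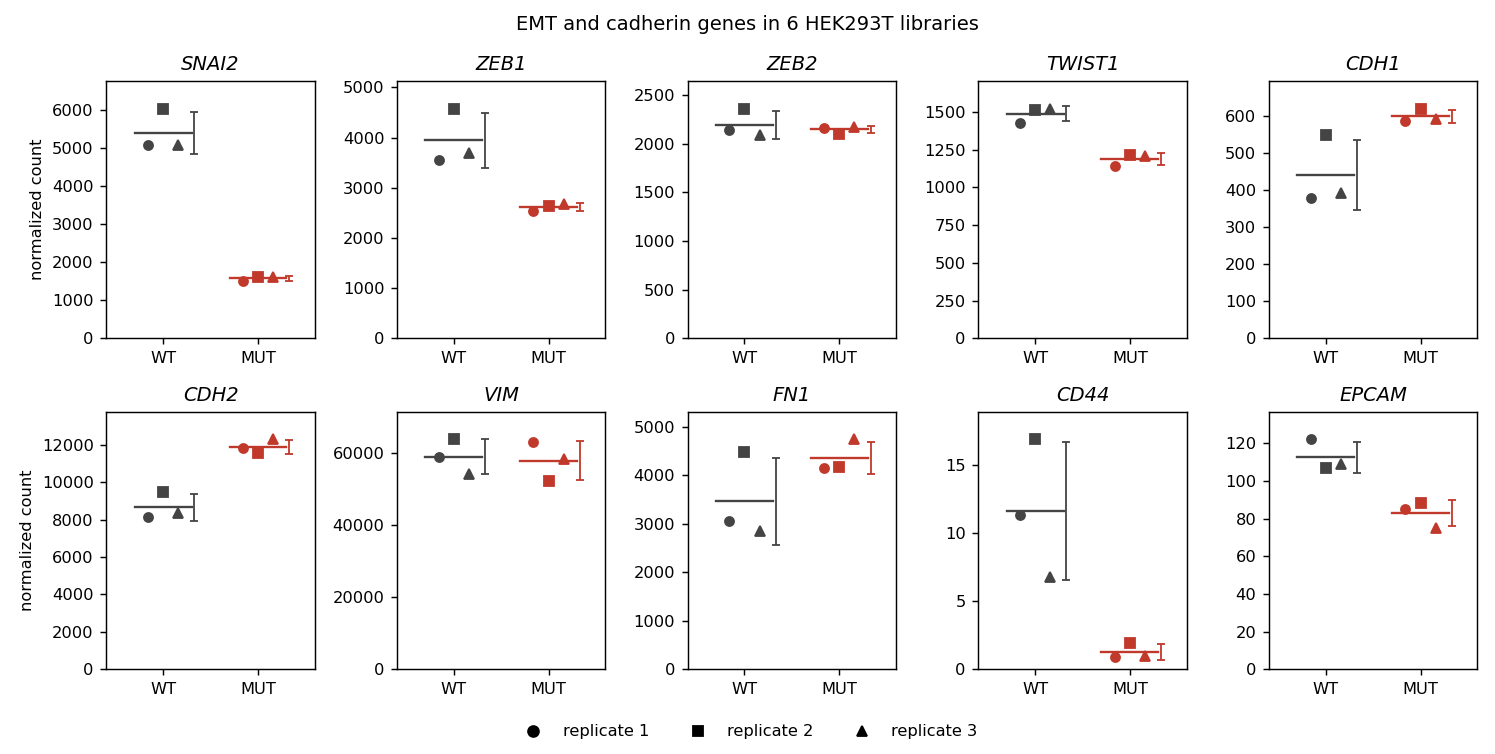
Normalized counts of the 10 members in each of the 6 libraries (points, shaped by replicate), with the mean of each line as a bar and its SD beside it; each panel starts at 0 and has its own scale. SNAI2, ZEB1, TWIST1, CD44 and EPCAM are lower in MYC MUT with no overlap, and CDH1 and CDH2 are higher with no overlap. ZEB2, VIM and FN1 overlap.

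SNAI2 (ENSG00000019549, chromosome 8, 48917598 to 48921740, minus strand, hg38) encodes the repressor SLUG and had the largest fold change of the 9 tested members. Its normalized count was 5091, 6040 and 5086 in the MYC WT libraries and 1508, 1616 and 1619 in MYC MUT. Each MYC MUT library lay far below each MYC WT library. The mean in MYC MUT was 29.2% of that in MYC WT (log2 fold change -1.77, SE 0.094, 95% interval -1.98 to -1.56, adjusted p = 4.07e-07). The exact two-sided permutation test gave p = 0.1, which is the smallest that 3 libraries against 3 can give. Over 20 alternative settings the log2 fold change stayed between -1.81 and -1.69. In bulk RNA, fewer cells with a transcript and less transcript per cell cannot be told apart. The 25 tested genes within 5 Mb on either side had a median of -0.038 on the log2 scale, with 6 called lower and 0 higher. Here and below, such counts are to be read against the 10.1% of all genes called lower and the 11.3% called higher. What the neighbours had to do with the change of a member was not tested.

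ZEB1 (ENSG00000148516, chromosome 10, 31318495 to 31529814, plus strand) encodes a zinc finger and homeobox factor that represses epithelial genes. Its normalized count was 3558, 4579 and 3695 in MYC WT and 2529, 2641 and 2678 in MYC MUT. All MYC MUT libraries lay below all MYC WT libraries, of which replicate 2 was the highest. ZEB1 fell in MYC MUT to 66.3% of the mean in MYC WT (log2 fold change -0.58, SE 0.096, adjusted p = 7.32e-04). Without replicate 2 of MYC WT the change was -0.47 with an adjusted p of 0.00135 and no longer passed the fold threshold. The 52 tested genes within 5 Mb on either side of ZEB1 had a median of -0.42, with 20 of them called lower and 1 higher, so that ZEB1 lay 0.16 below that median. Their part in the result was not tested.

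ZEB1 overlaps the long noncoding RNA gene ZEB1-AS1 on the opposite strand, with 917 ± 245 normalized counts in MYC WT against 396 ± 38.3 in MYC MUT (SD, n = 3). ZEB1-AS1 fell in MYC MUT (log2 fold change -1.18, SE 0.25, adjusted p = 0.00327). The sense and antisense genes were thus both lower in the same line. Whether the authors counted by strand is not given in the sources used here, so reads of the shared stretch cannot be assigned to either. SPTLC1P1, a pseudogene inside ZEB1, averaged 40.3 in MYC WT and 50.6 in MYC MUT and was not called (adjusted p = 0.204). The promoter windows of ZEB1 are shown because both genes start there and both moved in MYC MUT. RefSeq promoter sequences, 250 bases before to 50 after a start on GRCh38.p14, were at hand for 6 of the 10 members (ZEB1, ZEB2, CDH2, VIM, FN1 and CD44). They were searched for the E-box letters CAGGTG and their reverse complement CACCTG, the core that SNAI and ZEB factors bind. Of 35116 windows, 20.6% hold it, as do 2 of the 7 windows of ZEB1. The 250 bases before the first of those starts, with the E-box in capitals, lie on chromosome 10, chr10:31318167-31318416, plus strand, ahead of every ZEB1 transcript annotated in GENCODE.
ZEB1 start, upstream: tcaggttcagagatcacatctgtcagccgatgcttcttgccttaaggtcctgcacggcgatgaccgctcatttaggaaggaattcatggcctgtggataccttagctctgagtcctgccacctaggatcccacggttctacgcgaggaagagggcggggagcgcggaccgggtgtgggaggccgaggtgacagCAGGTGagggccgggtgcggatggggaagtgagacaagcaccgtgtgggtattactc

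The other ZEB1 window that holds the motif, at chr10:31318966-31319265, has 3 matches, counted from the start as base 1, at -242, -85 and 34. The stretches around them, with the match in capitals, are on the plus strand.
ZEB1 match at -242: ccccaccaCACCTGaggaaaactttt
ZEB1 match at -85: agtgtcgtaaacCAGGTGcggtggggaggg
ZEB1 match at 34: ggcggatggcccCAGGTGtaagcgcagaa
A match is a description of the letters, and no binding was measured at it here. These letters were absent from the windows of ZEB2, CDH2, VIM, FN1 and CD44.

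ZEB2 (ENSG00000169554, chromosome 2, 144364364 to 144521057, minus strand), the paralogue of ZEB1, showed no difference beyond the spread between libraries. Its normalized count was 2136, 2361 and 2091 in MYC WT and 2166, 2105 and 2175 in MYC MUT, and the lines overlapped. The log2 fold change was -0.030 (95% interval -0.18 to 0.12, adjusted p = 0.770), an interval that leaves out a change as large as the -0.58 of ZEB1.

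TWIST1 (ENSG00000122691, chromosome 7, 19020991 to 19117636, minus strand) had a normalized count of 1430, 1512 and 1523 in MYC WT and 1143, 1218 and 1206 in MYC MUT. The MYC MUT libraries were all below those of MYC WT. The log2 fold change was -0.32 (SE 0.074, adjusted p = 0.00550), which passed the test on p and stayed under the fold threshold, so TWIST1 was not called. The 47 tested neighbours of TWIST1 had a median of -0.17, with 7 called lower and 1 higher, and their part was not tested.

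**Figure D2:**
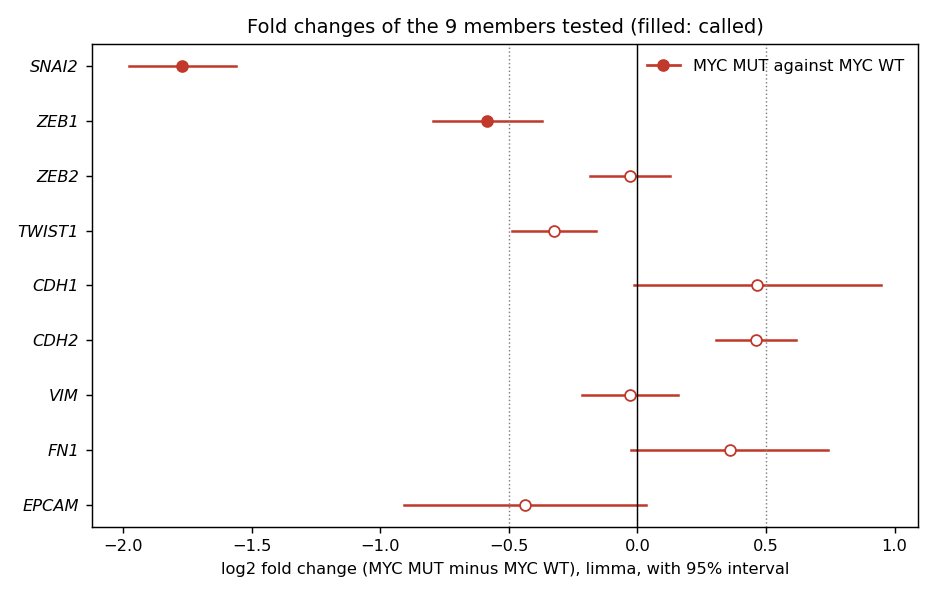
Log2 fold changes of the 9 tested members in MYC MUT against MYC WT (points, filled where called) with 95% intervals from limma; dotted lines mark the fold threshold of 0.5 in each direction. SNAI2 is at -1.77 and ZEB1 at -0.58, and the other members lie within the threshold.

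CDH1 (ENSG00000039068, chromosome 16, 68737292 to 68835537, plus strand), the gene of E-cadherin, had a normalized count of 379, 549 and 393 in MYC WT and 588, 620 and 592 in MYC MUT. Every MYC MUT library lay above every MYC WT library, and replicate 2 of MYC WT came closest. The mean in MYC MUT was 136% of that in MYC WT, at a log2 fold change of 0.47 (SE 0.22, 95% interval -0.014 to 0.95, adjusted p = 0.115), and CDH1 was not called. The 138 tested genes within 5 Mb had a median of 0.16, with 17 called higher and 14 lower.

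CDH2 (ENSG00000170558, chromosome 18, 27932879 to 28177946, minus strand), the gene of N-cadherin, had a normalized count of 8123, 9483 and 8373 in MYC WT and 11836, 11558 and 12295 in MYC MUT. No MYC MUT library overlapped MYC WT. The log2 fold change was 0.46 (SE 0.070, adjusted p = 4.52e-04), which passed the test on p and not the fold threshold, so CDH2 was not called. It passed both in 2 of 20 alternatives, at 0.54 with equal totals and 0.53 without replicate 2 of MYC WT. Its 51 tested neighbours had a median of 0.012.

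Set per kilobase of merged exons, CDH2 exceeded CDH1 in every library. The ratio of CDH2 to CDH1 was 15.2, 12.2 and 15.1 in MYC WT and 14.3, 13.2 and 14.7 in MYC MUT. The lines overlapped, and the means of CDH2 and CDH1 in MYC MUT were 137% and 136% of those in MYC WT. Per kilobase of the longest transcript the ratio ran from 20.7 to 25.7 in MYC WT and from 22.3 to 24.9 in MYC MUT.

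**Figure D3:**
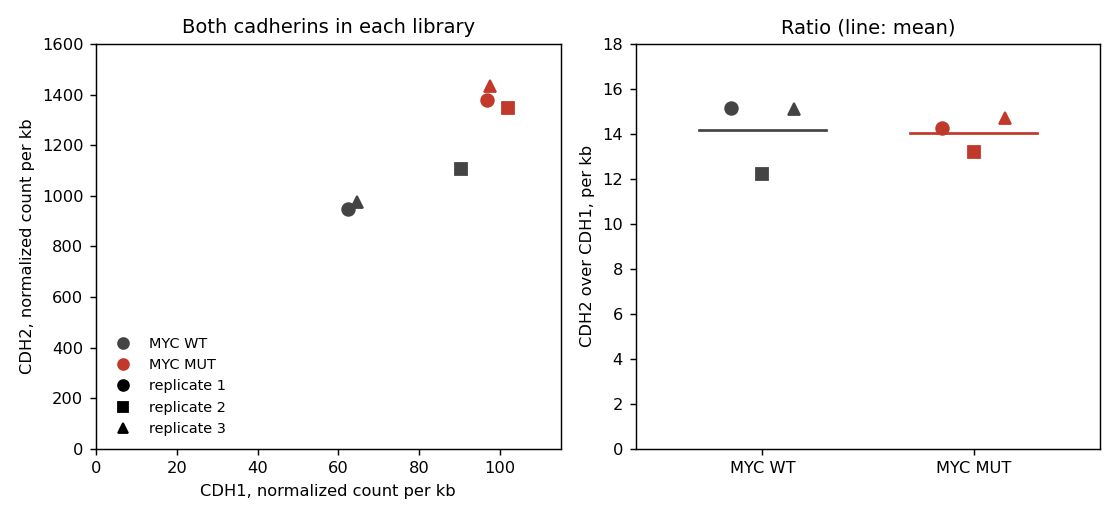
Left, CDH2 against CDH1 in each library, both as normalized counts per kilobase of exon; right, their ratio per library with the mean of each line. MYC MUT is higher for both genes, and its ratio of 13.2 to 14.7 lies within the 12.2 to 15.2 of MYC WT.

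VIM (ENSG00000026025, chromosome 10, 17228241 to 17237593, plus strand) was the most abundant member and did not differ beyond the spread between libraries. Its normalized count was 58990, 63784 and 54132 in MYC WT and 63013, 52185 and 58348 in MYC MUT. The ranges overlapped, with replicate 2 of MYC WT the highest and replicate 2 of MYC MUT the lowest. The log2 fold change was -0.029 (95% interval -0.22 to 0.16, adjusted p = 0.816). VIM also lies on chromosome 10, and its 58 tested neighbours within 5 Mb had a median of -0.32, with 11 called lower and 1 higher. VIM thus lay 0.29 above them. Its antisense partner VIM-AS1, at 343 normalized counts in MYC WT and 318 in MYC MUT on average, was not called (adjusted p = 0.622).

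FN1 (ENSG00000115414, chromosome 2, 215360440 to 215436073, minus strand), the gene of fibronectin, had a normalized count of 3049, 4488 and 2854 in MYC WT and 4156, 4175 and 4739 in MYC MUT. The lines overlapped through replicate 2 of MYC WT, which lay above 2 of the MYC MUT libraries. The log2 fold change was 0.36 (95% interval -0.024 to 0.74, adjusted p = 0.127). Without replicate 2 of MYC WT it was 0.56 and called (adjusted p = 0.0148), and without replicate 3 of MYC WT it was 0.23 (adjusted p = 0.377). The 70 tested neighbours of FN1 had a median of 0.028.

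CD44 (ENSG00000026508, chromosome 11, 35138882 to 35232402, plus strand) was close to silent and was left out of the test. It had 11, 15 and 7 reads in the MYC WT libraries and 1, 2 and 1 in MYC MUT. The MYC WT libraries were all above those of MYC MUT. Since no MYC MUT library had more than 3 reads, the MYC MUT level was set at a floor of 3 reads in each library. Against that floor, the mean of 11.6 ± 5.06 normalized counts in MYC WT (SD, n = 3) was 4.05-fold higher. This bounds the MYC MUT side alone. The exact permutation test gave p = 0.1. When every gene with any count was tested, CD44 passed both thresholds (adjusted p = 0.00353 with limma), which made 3 called members. Counts this low measure a handful of reads. The floor covers counting error in MYC MUT only, not that of the 7 to 15 reads per MYC WT library.

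EPCAM (ENSG00000119888, chromosome 2, 47345158 to 47387601, plus strand) was low in both lines. Its normalized count was 122, 107 and 109 in MYC WT and 85.0, 88.5 and 75.0 in MYC MUT. The MYC MUT libraries lay below those of MYC WT. The log2 fold change was -0.44 (SE 0.21, 95% interval -0.91 to 0.032, adjusted p = 0.128), and EPCAM was not called. It had between 77 and 119 reads per library. With only the 2 lines compared, the adjusted p was 0.0387 at the same log2 fold change, still short of the fold threshold. Whether read depth set the width of the interval was not tested.

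Levels of different genes were compared as normalized counts per kilobase of merged exons. In MYC WT the order was VIM at 11393 ± 932, SNAI2 at 1648 ± 167, CDH2 at 1009 ± 84.3, TWIST1 at 745 ± 25.4, ZEB1 at 456 ± 64.0, FN1 at 201.2 ± 51.8, ZEB2 at 84.0 ± 5.52, CDH1 at 72.5 ± 15.5, EPCAM at 46.3 ± 3.42 and CD44 at 1.16 ± 0.51 (SD, n = 3). Neighbours in that order overlapped only for ZEB2 and CDH1. In MYC MUT, SNAI2 took the fourth place at 482 ± 19.3, below CDH2 at 1386 ± 43.4 and TWIST1 at 595 ± 20.3 and above ZEB1 at 302 ± 8.96 and FN1 at 253 ± 19.2, and CDH1 at 98.8 ± 2.88 stood above ZEB2 at 82.2 ± 1.47. VIM, at 11176 ± 1049 per kilobase, again led. No neighbours overlapped there. By the longest transcript some neighbours changed places: SNAI2 and CDH2 in MYC WT, and ZEB1 and FN1 as well as CDH1 and ZEB2 in MYC MUT.

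**Figure D4:**
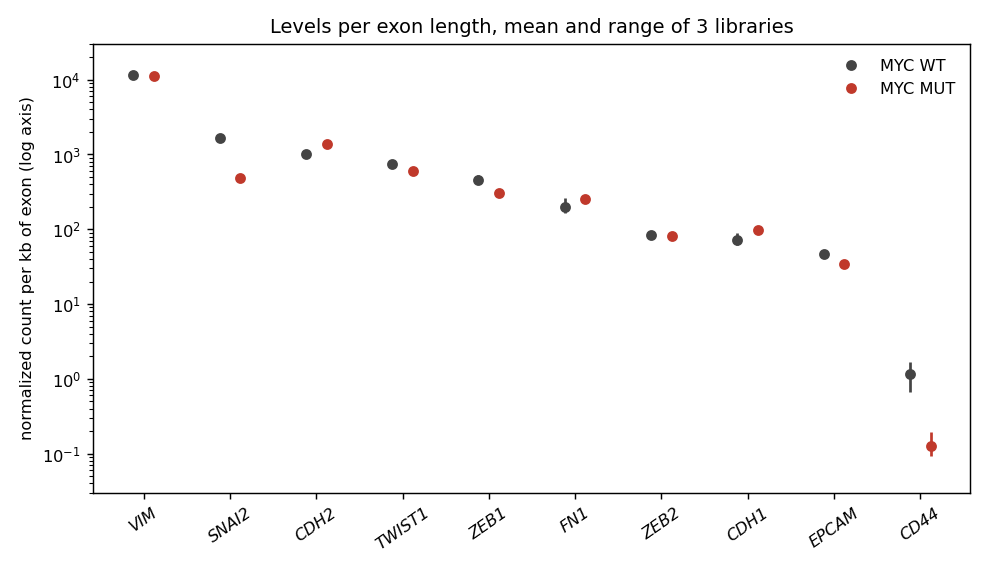
Normalized count per kilobase of exon on a log axis, as the mean (point) and range (line) of 3 libraries in each line, with genes ordered by their level in MYC WT. SNAI2 goes from 1648 in MYC WT to 482 in MYC MUT, while VIM leads in both lines.

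The wider pathway was described by lists of genes named for their roles. Each list is given by its counts of called genes and its median log2 fold change in MYC MUT against MYC WT. The counts are to be read against the 11.3% of all genes called higher and the 10.1% called lower. The medians are to be read against that over all genes of -0.0034. The lists were chosen with earlier results of these data known, so these shares are a scale and not an independent test. The filter took the mean over all libraries fitted, so a gene low in MYC WT and high in MYC MUT could enter. Of 15 tested EMT transcription factors and inhibitors outside the members, 3 rose and none fell (median 0.054). SNAI1, the paralogue of SNAI2, rose from 90.8 ± 10.3 to 152 ± 21.0 normalized counts (log2 fold change 0.74, adjusted p = 0.00297), opposite in direction to SNAI2. ID1 and ID2, which encode inhibitors of basic helix-loop-helix factors, rose by 1.07 and 0.93 on the log2 scale (adjusted p = 0.00658 and 0.00287). Among 15 corepressors that SNAI and ZEB factors recruit, KDM1A, a histone demethylase, was the single call (median -0.057). KDM1A fell from 22395 ± 631 to 15489 ± 288 (log2 fold change -0.53, adjusted p = 3.19e-05), but not beyond the fold threshold with equal totals.

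The list of EMT-inducing growth factors and receptors also holds SMAD genes, HMGA2 and LIN28B. It had 25 tested genes, of which 5 rose and 2 fell (median 0.12). TGFB1, the prototype EMT-inducing ligand, rose from 1376 ± 57.2 to 3801 ± 241 (log2 fold change 1.46, adjusted p = 1.41e-05). TGFBR2, which encodes the receptor that binds it, rose from 417 ± 54.4 to 997 ± 57.9 (1.26, adjusted p = 1.62e-04). EGF, the epidermal growth factor gene, rose from 41.7 ± 2.89 to 73.5 ± 4.44 (0.80, adjusted p = 0.0109). The 2 that fell, TGFBR3 and FGFR2, were named after their values were seen. TGFBR3 went from a mean of 3635 to 2141 (-0.77, adjusted p = 6.28e-05) and FGFR2 from 4560 to 2886 (-0.66, adjusted p = 1.45e-04).

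Among 30 tested epithelial junction and surface genes, 8 rose and 4 fell (median 0.27). CLDN1, a tight junction claudin, rose from 52.7 ± 3.90 to 174 ± 20.6 (log2 fold change 1.70, adjusted p = 3.78e-05). MARVELD2, which encodes tricellulin, fell from 543 ± 46.5 to 107 ± 6.52 (log2 fold change -2.34, adjusted p = 4.83e-07), and its relative MARVELD3 from 82.5 ± 9.27 to 7.02 ± 0.68 (-3.38, adjusted p = 8.96e-07). Of 18 factors of epithelial identity only 9 could be tested, of which 3 rose and 2 fell (median 0.30). FOXA1, a pioneer factor, rose from 822 ± 65.0 to 1238 ± 8.74 (log2 fold change 0.59, adjusted p = 2.53e-04), and GRHL1, a grainyhead factor, from 537 ± 29.4 to 824 ± 15.3 (0.62, adjusted p = 2.78e-04). GATA3, a lineage factor, fell by 0.60 on the log2 scale (adjusted p = 0.00818), though not beyond the threshold without replicate 2 of MYC WT. The remaining calls, FOXA2 and ESRP2, had means of 8.03 and 77.7 in MYC WT and 38.9 and 37.3 in MYC MUT, and were named after their values were seen. The 5 calls became 3 at a minimum mean of 50.

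Cadherins other than CDH1 and CDH2 were mostly low, with 10 of 20 tested, of which 5 rose and 1 fell (median 0.56). CDH4, which encodes R-cadherin, rose from 31.5 ± 6.78 to 487 ± 60.7 (log2 fold change 3.92, adjusted p = 7.09e-07), and CDH24 from 1012 ± 46.2 to 1521 ± 55.5 (0.59, adjusted p = 1.86e-04). The other 4 calls, CDH7, CDH10, CDH18 and CDH22, had means of 8.21 to 36.2 in MYC WT and were named after their values were seen: CDH7 fell, and the others rose. The 6 calls became 2 among genes with a mean of at least 50 and 11 when every gene with any count was tested. CDH18, at 8.21 in MYC WT and 31.0 in MYC MUT, lay under the minimum mean of 10 in MYC WT. CDH4 likewise lay under the alternative minimum of 50 in MYC WT. Among 14 catenins and cadherin linkers, 1 rose and 2 fell (median -0.061). AFDN, which encodes the junction linker afadin, fell from 13582 ± 947 to 7260 ± 248 (log2 fold change -0.90, adjusted p = 3.96e-06), and CTNNBIP1, the gene of an inhibitor of beta-catenin, from 2857 ± 564 to 1698 ± 191 (-0.74, adjusted p = 0.00621). NECTIN1, the gene of a nectin that binds afadin, rose from 1764 ± 75.3 to 3001 ± 214 (0.76, adjusted p = 5.14e-05).

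**Figure D5:**
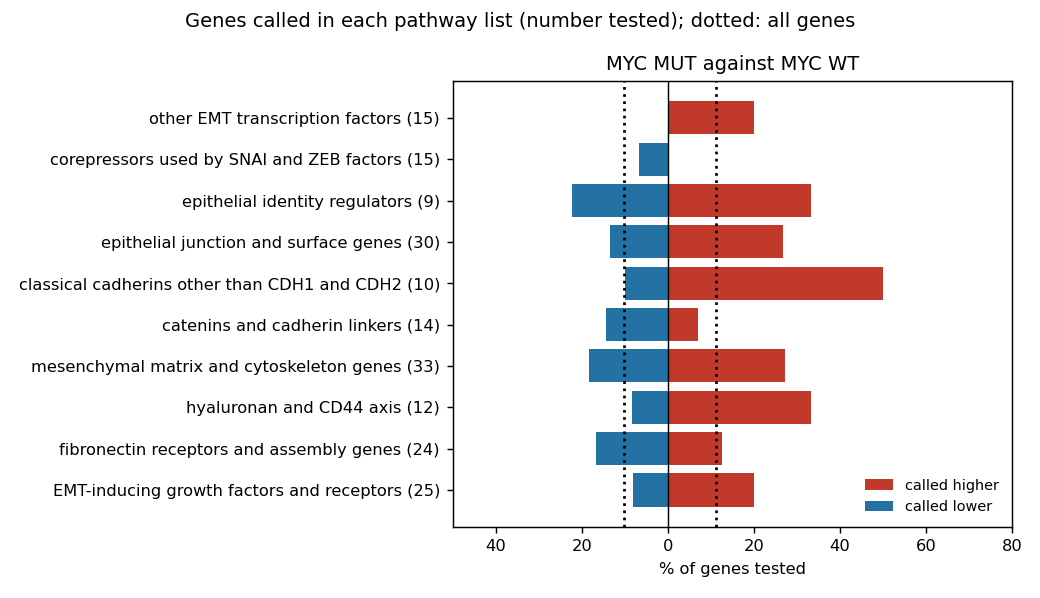
Share of the tested genes of each of 10 pathway lists, cell type markers left out, called higher (right) or lower (left) in MYC MUT against MYC WT, with the number tested in brackets and the shares over all 20884 genes, 11.3% and 10.1%, as dotted lines. Of these 10 lists the cadherins, with 5 of 10 called higher, have the longest bar. Some of these cadherins passed the filter on the mean with a low level in MYC WT. The 6 cadherin calls in either direction became 2 among genes with a mean of at least 50. The lists were chosen with earlier results of these data known.

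Of 33 tested mesenchymal matrix and cytoskeleton genes, 9 rose and 6 fell (median 0.26). The 6 that fell, named after their values were seen, were COL3A1, ACTA2, TPM2, VCAN, MMP2 and MMP14. Their log2 fold changes ran from -0.55 for ACTA2 to -0.78 for TPM2, and VCAN went from a mean of 10528 to 6987. TNC, the gene of tenascin C, rose from 55.8 ± 3.16 to 200.5 ± 54.7 (log2 fold change 1.79, adjusted p = 5.20e-05), LOX, which encodes a collagen crosslinking enzyme, from 1289 ± 215 to 3071 ± 151 (1.26, adjusted p = 8.80e-06), and CCN1, the gene of a matrix signalling protein, from 1146 ± 86.8 to 2429 ± 958 (1.02, adjusted p = 0.00271). The fibroblast markers, 5 of 9 tested, gave 1 higher and 1 lower, the collagen genes COL1A1 (0.78, adjusted p = 9.12e-04) and COL3A1 (-0.76, adjusted p = 0.0293). The summed level of the 9 was higher in every MYC MUT library than in any of MYC WT. Most of that sum was COL1A1, which went from a mean of 1111 in MYC WT to 1907 in MYC MUT. COL3A1 went from 106 to 61.4, and no other tested fibroblast marker was called. The part of the fibroblast markers in these counts was not tested. The 2 fibroblast calls became 1 without replicate 1 or 2 of MYC WT or replicate 1 or 3 of MYC MUT, when that of COL3A1 was lost.

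The list of genes around CD44 and its ligand hyaluronan included 12 tested, of which 4 rose and 1 fell (median 0.19). HAS3, a hyaluronan synthase gene, rose by 0.81 on the log2 scale (adjusted p = 0.00225), HYAL3 by 0.76 (adjusted p = 0.00326) and CEMIP2, a hyaluronidase gene, by 0.74 (adjusted p = 3.25e-04). EZR, the 1 that fell and named after its values were seen, went from a mean of 16595 to 10752 (-0.62, adjusted p = 4.53e-05). Of 24 fibronectin receptor and assembly genes, all tested, 3 rose and 4 fell (median -0.061). ITGA8, an integrin subunit that binds fibronectin, fell from 844 ± 171 to 261 ± 36.3 (log2 fold change -1.68, adjusted p = 2.48e-05), and FERMT1, a kindlin gene, fell by 1.26 on the same scale (adjusted p = 2.60e-04), while LIMS2, an adaptor of integrin-linked kinase, rose by 1.25 (adjusted p = 0.00550).

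The HEK293T markers, which mix neuronal and epithelial genes, gave 4 higher and 1 lower of 7 (median 0.69). KRT8, the gene of an epithelial keratin, rose from 462 ± 54.8 to 782 ± 24.9 (log2 fold change 0.77, adjusted p = 4.13e-04). NEFL, a neurofilament gene, rose from 7014 ± 136 to 14778 ± 338 (1.07, adjusted p = 5.75e-06), while NEFM, another neurofilament gene and the single marker called lower, named after its values were seen, fell from a mean of 12296 to 8182 (-0.58, adjusted p = 0.0127). LHX1, a gene of kidney development, rose from 200.2 ± 16.0 to 341 ± 48.3 (0.76, adjusted p = 0.00606). Of the endothelial and blood cell markers 4 could be tested, of which 3 rose (median 1.02), or 0 at a minimum mean of 50. Their summed level of at most 232 normalized counts compares with 23404 to 30340 for the HEK293T markers.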

How the data were processed

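RNA-seq libraries of HEK293T were used from a series of 213 samples, and the other assays were not analysed here. The authors mapped reads on hg38 using bwa mem, an aligner without spliced alignment, took out duplicates and counted per gene. The deposited values are a normalized signal, in which the authors scaled each library's reads by its DESeq2 size factor. Whole reads were recovered from the step of each library for 100% of values. GENCODE named 57754 of 58336 identifiers.

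Genes with a mean of at least 10 were tested on log2(normalized count + 1) with limma 3.58.1 in R 4.3.3 (lmFit, eBayes with a trend), with Benjamini-Hochberg adjustment over 20884 genes. The fit held 9 libraries, 6 of which are described; the others shared the filter and the estimate of spread, and are not reported here. The fit was tested on simulated data. The labels number the libraries of a line as biological replicates, without saying whether these were separate cultures, and p-values measure the spread between these libraries. The members and lists were chosen with earlier results of these data known. Genes named besides the members were, per list, up to 3 called genes with the largest change and a mean of at least 50, and tested genes overlapping a member. Some others were named after their values were seen, as said beside them. A planned search for genes most like each called member is not given. A floor of 3 reads bounds folds against a near-silent line. Alternatives included edgeR 4.0.16 and DESeq2 1.42.0 on recovered reads. Figures used matplotlib 3.10.9.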

Additional observations from a re-analysis of the deposited data

How the results depend on the processing

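Over 20 alternative settings of the 9 tested members, and 1 of CD44, 172 refits kept direction and side of the threshold, 1 lost a call (ZEB1), 3 gained one (CDH2 under 2 settings and FN1) and 5 turned sign. The 1 refit of CD44, which was left out of the test at a mean of 10, is counted among the 172 but passed both thresholds, so that 3 members were called with every gene of any count. Those that turned sign, ZEB2 and VIM, were never called. With a library left out, ZEB2 ran from -0.064 to 0.024 and VIM from -0.093 to 0.043, and with equal totals they were at 0.045 and 0.046. The called members numbered 4 by adjusted p alone and 1 at a log2 fold change beyond 1, and with a library left out 2 to 3. The replicate block left them at 2 and changed no call of a member. Same-numbered MYC WT and MYC MUT libraries had correlations of their deviations of 0.328, 0.146 and 0.049, and differently numbered ones ran from -0.238 to 0.154. The same-numbered libraries did not pass the rule for pairing, so a shared replicate effect was left out of the main fit. The block moved the count of all called genes from 4476 to 4970. With it the adjusted p of CDH1 in limma went from 0.115 to 0.0243 at the same log2 fold change, short of the fold threshold. The ratio of CDH2 to CDH1 was higher per length of the longest transcript in both lines. The cause of these shifts was not tested. CD44 had between 1 and 15 reads per library, and EPCAM between 77 and 119. The part of read depth was not tested.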
